A study of Mus musculus with 5 samples.

Results

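The interferon pathway and its stimulated genes were described in mature 3T3-L1 adipocytes, as a list of 38 mouse genes that runs from the interferon receptors and their signalling factors to the antiviral proteins they induce. A member was taken as the probe set whose only gene symbol in the array annotation was that gene. This found 37 of the 38 members, each with a single probe set, out of 19505 genes named on the array; Ifi44 is not analysed here. The arrays measured total RNA of 3T3-L1, an established mouse fibroblast line that turns into fat cells in culture. After 7 days of differentiation the cells of every sample were kept for 72 h in RPMI-1640 with 10% fetal bovine serum. In the 3 exposed samples human MM.1S multiple myeloma cells shared this medium from behind a transwell membrane with 0.4 µm pores, and in the 2 control samples the medium was used alone. What all 5 samples share is the preceding adipogenic induction: 4 days with insulin (5 µg/mL), dexamethasone (1 µM) and IBMX (0.5 mM), a further 2 days with insulin alone, and a last day in basal medium. Apart from that last day, 4 days in basal medium are also given for every sample. The labels number the replicates of each group without saying that they came from separate cultures, so a p-value here reflects only how far these arrays scatter, and that scatter could be technical. Each sample was hybridised to 1 array made for mouse genes, so RNA of the human cells was not a target.

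Interferons are secreted proteins that put cells into an antiviral state. Type I interferons bind the receptor chains Ifnar1 and Ifnar2, whose kinases Tyk2 and Jak1 activate Stat2. Stat2 acts with Irf9 in a complex that binds the interferon-stimulated response element (ISRE) in the promoters of responsive genes. Interferon-gamma binds Ifngr1 and Ifngr2, and its early target genes carry the gamma-activated site (GAS). Many of these transcripts are also kept at a low, tonic level in cells that have met no infection.

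The promoters of many members carry the letters of these elements. In RefSeq windows from 250 bases before to 50 after a gene's start (GRCm38.p6), 29 of the 38 members had at least 1 window. The ISRE core, spelled GAAA NN GAAA without the spaces and read on both strands, was present in 13 of the 29 (44.8%) and in 3.99% of all 27025 genes with a window. The GAS letters TTCNNNGAA, which read the same on both strands, were present in 9 of the 29 (31%) and in 9.55% of all genes. In the window of Bst2 a match to each motif overlapped. In 10 members an ISRE core lay wholly before the start, and in Ddx58, Ifih1 and Eif2ak2 it did not. The stretches below, 5′ to 3′ on the gene's strand with the motif letters in capitals, belong to the 6 of these 10 members whose control arrays lay more than 0.3 apart on the log2 scale, a pattern described further on, followed by Ifit1, whose control arrays were close, and by the GAS match of Irf1.
Isg15 (chr4:156200860-156200911, minus strand, 3 overlapping cores from 78 to 57 bases before the start): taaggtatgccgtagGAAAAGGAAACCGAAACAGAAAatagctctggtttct
Gbp3 (chr3:142559984-142560029, plus strand, 45 to 30 bases before): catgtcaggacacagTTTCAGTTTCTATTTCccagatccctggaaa
Gbp2 (chr3:142620589-142620628, plus strand, 59 to 50 bases before): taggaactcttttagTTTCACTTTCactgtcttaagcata
Ifit3 (chr19:34583358-34583431, plus strand, 156 to 113 bases before): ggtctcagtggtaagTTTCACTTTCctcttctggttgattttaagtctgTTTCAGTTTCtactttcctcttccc
Stat2 (chr10:128270261-128270300, plus strand, 222 to 213 bases before): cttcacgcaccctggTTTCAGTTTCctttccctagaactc
Bst2 (chr8:71537572-71537617, minus strand, 130 to 115 bases before): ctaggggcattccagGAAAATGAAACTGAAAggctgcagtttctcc
Ifit1 (chr19:34640770-34640828, plus strand, 104 to 76 bases before): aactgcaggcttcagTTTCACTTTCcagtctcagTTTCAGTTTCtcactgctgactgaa
Irf1, GAS (chr11:53769909-53769947, plus strand, 90 to 82 bases before): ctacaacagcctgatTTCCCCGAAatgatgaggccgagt
In Isg15 and Bst2 the cores read along the gene's strand as GAAA repeats, and in Gbp3, Gbp2, Ifit3, Stat2 and Ifit1 they read as TTTC repeats on it. A match is a run of letters and not evidence that a factor binds there.

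No member passed the test between exposed and control adipocytes. With limma over all 22206 probe sets, 0 of 37 members had an adjusted p under 0.05, the same as the 0% of all probe sets, and the smallest adjusted p of any member was 0.93. At an unadjusted p under 0.05 there were 3 members, against 3.49% of all probe sets. All 3 were lower on the exposed arrays: Parp14, Usp18 and Mx1. Without exposed array 1 this count was 1. In group means 23 members were lower and 14 higher on exposed arrays, where 50.1% of all probe sets were lower. The number higher in mean was 8 without exposed array 3 and 7 without control array 2, and centring the arrays on their medians gave 9. The median difference of the members was -0.11 on the log2 scale, against -0.0004 over all probe sets. It was -0.041 without control array 1 and -0.2 without control array 2. Every exposed array lay below both control arrays for 8 members (Tyk2, Irf9, Irf7, Dhx58, Mx1, Rsad2, Usp18 and Parp14), where 8.84% of all probe sets did so. This count was 13 without exposed array 3 and 21 without control array 2, with fewer arrays to separate. Every exposed array lay above both control arrays for Ifnar2 alone, where 8.5% of all probe sets did so. The 95% interval excluded a 2-fold difference in either direction for 30 of 37 members, against 92.9% of all probe sets. It did not for Irf7, Ddx58, Ifit1, Mx1, Gbp3, Iigp1 and Parp14. In RNA from whole cultures, fewer cells carrying a transcript and less of it per cell cannot be told apart.

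**Figure D1:**
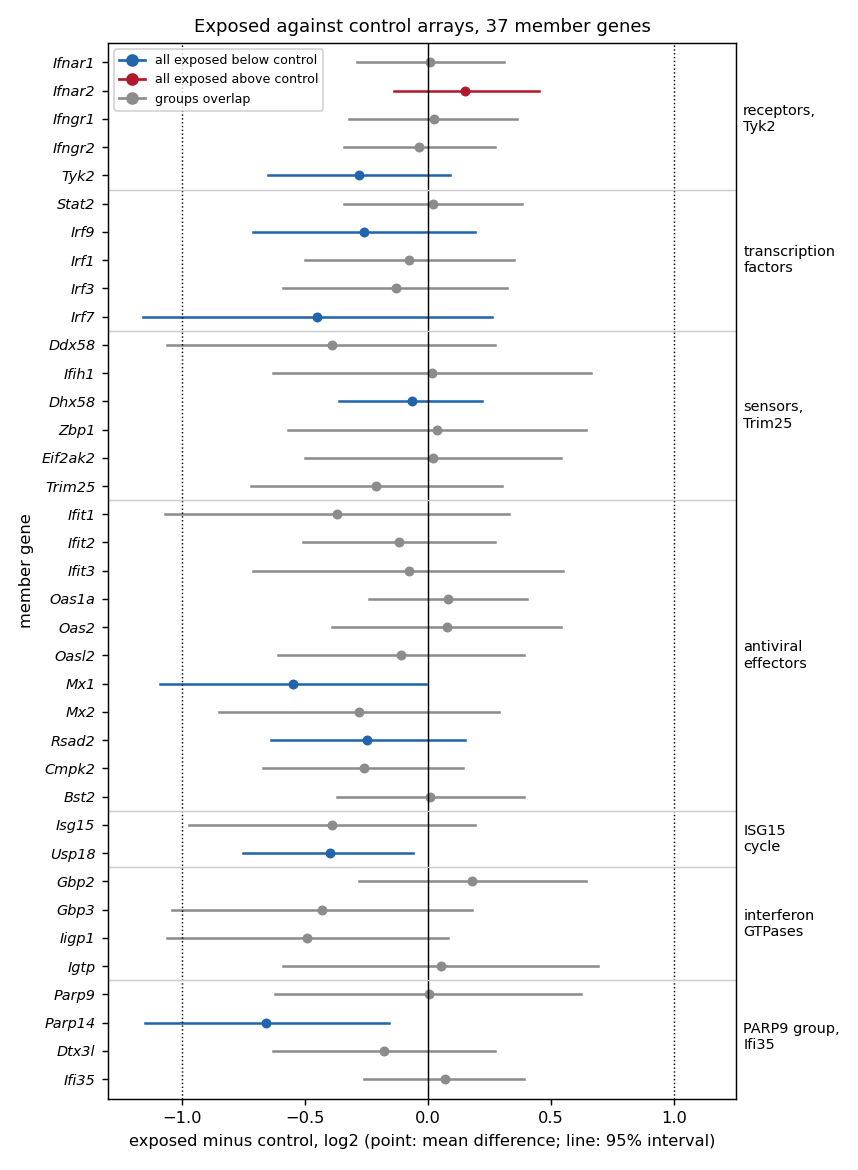
Difference between exposed and control arrays for the 37 measured members, grouped by role, in log2 units; points are mean differences (3 exposed minus 2 control arrays), lines are 95% intervals from limma, and dotted lines mark a 2-fold difference. The intervals of Parp14, Usp18 and Mx1 lie below 0, that of Mx1 by 0.01, and the other 34 cross it.

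No receptor chain passed the test, and the intervals of all 4 excluded a 2-fold difference. Ifnar1, the first chain of the type I receptor, read 6.13, 6.21 and 6.29 on the exposed arrays and 6.20 and 6.21 on the control arrays, and its 95% interval for the difference ran from -0.29 to 0.31. The groups overlapped, and the whole range was 0.16. Ifnar2, the second chain, read 9.99, 9.89 and 9.92 on exposed and 9.84 and 9.72 on control arrays, a difference of 0.15 (-0.14 to 0.45). It is the member whose exposed values all lay above the control values. Of the interferon-gamma receptor chains, Ifngr1 had group means of 7.07 ± 0.15 (SD, n = 3) exposed and 7.05 ± 0.014 (SD, n = 2) control (interval of the difference -0.32 to 0.36), and Ifngr2 7.85 ± 0.086 and 7.89 ± 0.027 (-0.34 to 0.27). Tyk2, the kinase bound to Ifnar1, read 5.52, 5.83 and 5.48 on exposed and 5.91 and 5.86 on control arrays. Its group means were 5.61 ± 0.19 (SD, n = 3) and 5.89 ± 0.035 (SD, n = 2), the groups did not overlap, and the interval of -0.65 to 0.09 included 0. Ifnar1, Ifngr2 and Ifnar2 lie close together on chromosome 16 of the reference, with 1 protein-coding gene between the 2 chains of the type I receptor.

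Of the 5 transcription factors 4 (80.0%) were lower in mean on exposed arrays, all but Stat2, where 50.1% of all probe sets were lower. Those 4 include both Irf1 (-0.076), an interferon target, and the constitutive Irf3 (-0.13). Stat2 read 6.70, 6.66 and 6.70 on exposed arrays, which lay close together, and 6.84 and 6.49 on control arrays, which lay on either side of them. Irf9, the DNA-binding partner of Stat2, read 5.96, 5.96 and 5.48 against 6.08 and 6.04, so exposed array 3 was low and the other exposed arrays were just under the controls. Its difference was -0.26 (-0.71 to 0.19). Irf7, which amplifies interferon production and is itself induced by interferon, read 4.63, 5.50 and 5.50 against 5.56 and 5.76. Its difference of -0.45 (-1.16 to 0.26) goes with a low value on exposed array 1. Irf3, the constitutive factor that starts interferon transcription when viral nucleic acid is sensed, read 6.36, 6.90 and 6.70 against 6.86 and 6.72, and the groups overlapped. Irf1, an early interferon-gamma target whose GAS match is shown above, was at 7.60 ± 0.25 (SD, n = 3) and 7.68 ± 0.018 (SD, n = 2).

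No sensor of viral nucleic acid passed the test, nor did Trim25, which was grouped with them. Of these 6 members 3 (50.0%) were lower in mean, near the 50.1% of all probe sets: Ddx58, Dhx58 and Trim25. Ddx58, the RNA helicase RIG-I, read 6.76, 6.78 and 5.98 on exposed and 7.03 and 6.76 on control arrays. Exposed array 3 stood low and the other exposed arrays lay beside control array 2, and the difference was -0.39 (-1.06 to 0.27). Ifih1, the related helicase MDA5, was at 5.24 ± 0.26 (SD, n = 3) exposed and 5.23 ± 0.53 (SD, n = 2) control, with control arrays 0.75 apart. Dhx58, or LGP2, which modulates both helicases, was at 5.98 ± 0.011 (SD, n = 3) and 6.04 ± 0.069 (SD, n = 2). Zbp1, a sensor of Z-form nucleic acid that can trigger cell death, was at 6.34 ± 0.40 (SD, n = 3) exposed and 6.30 ± 0.18 (SD, n = 2) control. Eif2ak2, the kinase PKR that halts translation on sensing double-stranded RNA, was at 7.73 ± 0.35 (SD, n = 3) exposed and 7.71 ± 0.001 (SD, n = 2) control. Trim25, a ubiquitin ligase that acts on RIG-I, was at 8.06 ± 0.21 (SD, n = 3) and 8.27 ± 0.37 (SD, n = 2).

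Antiviral effectors made up the largest group, and 8 of the 11 (72.7%) were lower in mean, where 50.1% of all probe sets were lower. Mx1, a dynamin-like GTPase that blocks viral replication, read 3.32, 4.04 and 3.75 on exposed and 4.26 and 4.24 on control arrays. The control values were close and above every exposed value, and the difference was -0.55 (-1.09 to -0.01, unadjusted limma p 0.048, adjusted p 0.93). Its signal lay at the 38.7th percentile of all probe sets, where RMA values compress differences. Its relative Mx2 read 6.35, 5.95 and 6.56 against 6.80 and 6.33, so that control array 2 lay among the exposed arrays. Ifit1, which binds viral RNA ends, read 5.24, 5.64 and 6.25 against 6.09 and 6.06. The exposed arrays spread over 1.01 and took in both controls, so its difference of -0.37 (-1.07 to 0.33) is smaller than that spread. Ifit2 was at 5.19 ± 0.21 (SD, n = 3) exposed and 5.31 ± 0.053 (SD, n = 2) control. Ifit3 was at 7.19 ± 0.35 (SD, n = 3) exposed and 7.27 ± 0.40 (SD, n = 2) control, and its groups overlapped, as did those of Ifit2. Of the arrays, exposed array 3 held the highest Ifit1 and Ifit2 values. Ifit2 and Ifit3 are neighbours on chromosome 19, with Ifit1 nearby. Ifit3 has a close copy, Ifit3b, and probe sequences were not examined here.

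The remaining effectors held most of the dim signals. Rsad2, or viperin, which interferes with viral RNA synthesis, was at 4.26 ± 0.22 (SD, n = 3) and 4.51 ± 0.043 (SD, n = 2), with every exposed array below the controls. Cmpk2, its neighbour on chromosome 12 and a mitochondrial nucleotide kinase, had the lowest signal of the list (18.1th percentile) and was at 2.67 ± 0.083 (SD, n = 3) exposed and 2.93 ± 0.30 (SD, n = 2) control. Oas1a and Oas2, which make the oligoadenylates that activate RNase L, were higher in mean by less than 0.1: Oas1a was at 4.54 ± 0.061 (SD, n = 3) exposed and 4.46 ± 0.13 (SD, n = 2) control, and Oas2 at 4.31 ± 0.26 and 4.23 ± 0.18. Their relative Oasl2 was at 6.09 ± 0.24 (SD, n = 3) exposed and 6.19 ± 0.31 (SD, n = 2) control. Oas1a, Oas2, Mx1, Rsad2 and Cmpk2 were the 5 members with a signal below the median probe set. Bst2, or tetherin, which holds budding virus on the cell surface, read 9.19 ± 0.13 (SD, n = 3) and 9.18 ± 0.22 (SD, n = 2), an interval of -0.37 to 0.39.

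Both genes of the ISG15 cycle were lower in mean on exposed arrays. Isg15 encodes a ubiquitin-like protein that is attached to other proteins after interferon. It read 8.07, 7.64 and 8.06 on exposed and 8.63 and 8.0 on control arrays. Control array 1 stood above the other arrays, control array 2 lay among the exposed arrays, and the difference was -0.39 (-0.97 to 0.19). It was -0.076 without control array 1 and -0.71 without control array 2. Usp18 removes ISG15 from its targets and also damps signalling at Ifnar2. It read 5.67, 5.58 and 5.89 against 6.16 and 6.07, with no overlap and control arrays 0.09 apart. Its difference of -0.40 (-0.75 to -0.06) had an unadjusted limma p of 0.03 and an adjusted p of 0.93.

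**Figure D2:**
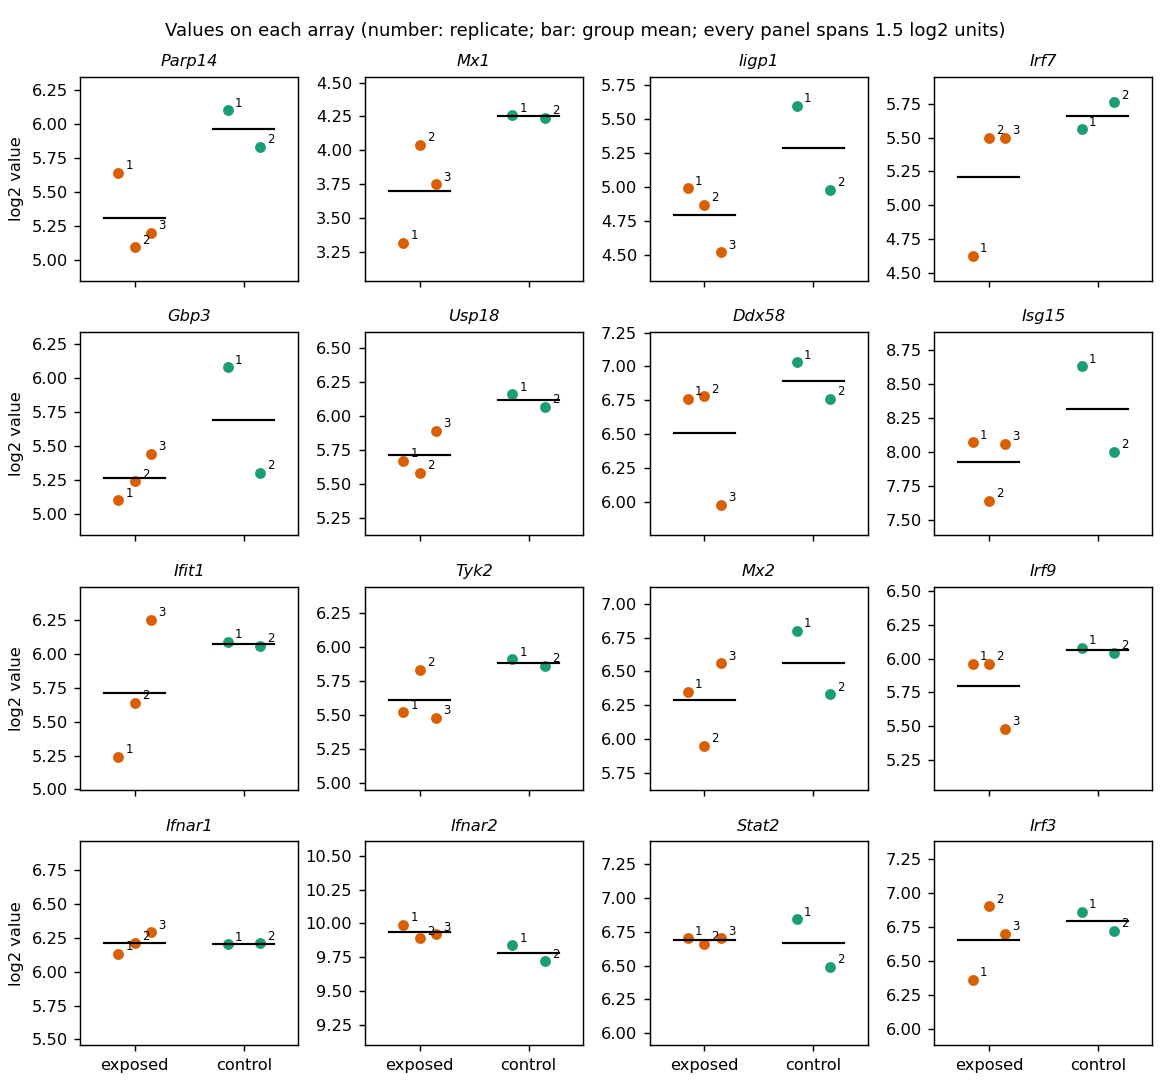
Log2 values on every array for the 12 members with the largest differences and for Ifnar1, Ifnar2, Stat2 and Irf3; points are arrays with their replicate number, bars are group means, and every panel spans 1.5 log2 units. Exposed values of Parp14, Mx1 and Usp18 lie below both control values, while in Isg15, Gbp3 and Iigp1 control array 1 stands alone and control array 2 lies with the exposed arrays.

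Interferon-induced GTPases held 3 of the widest gaps between the control arrays. Gbp3, a guanylate-binding protein that attacks membranes of intracellular pathogens, read 5.10, 5.24 and 5.44 on exposed and 6.08 and 5.30 on control arrays. Control array 1 stood above the other arrays, control array 2 lay among the exposed arrays, and the difference was -0.43 (-1.04 to 0.18). It was -0.041 without control array 1 and -0.82 without control array 2. Its near neighbour on chromosome 3, Gbp2, differed in the other direction at 5.96 ± 0.018 (SD, n = 3) exposed and 5.78 ± 0.41 (SD, n = 2) control, with control array 2 low at 5.49. Iigp1, an immunity-related GTPase, read 4.99, 4.87 and 4.52 against 5.60 and 4.98, a difference of -0.49 (-1.06 to 0.08). Exposed array 1 and control array 2 were nearly equal, and the difference was -0.18 without control array 1 and -0.8 without control array 2. Igtp, of the same family, was at 5.78 ± 0.46 (SD, n = 3) exposed and 5.73 ± 0.041 (SD, n = 2) control and was highest on exposed array 3.

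Parp14 had the largest difference of the list. This ADP-ribosyltransferase read 5.64, 5.09 and 5.20 on exposed and 6.10 and 5.83 on control arrays, with means of 5.31 ± 0.29 (SD, n = 3) and 5.97 ± 0.19 (SD, n = 2). Every exposed value was below both controls, and the difference was -0.66 (-1.15 to -0.16), or 0.633 of the control level, with an unadjusted limma p of 0.017 and an adjusted p of 0.93. Dtx3l, its neighbour on chromosome 16 and a ubiquitin ligase, was at 6.39 ± 0.26 (SD, n = 3) exposed and 6.57 ± 0.13 (SD, n = 2) control, a difference of -0.18 (-0.63 to 0.27). Parp9, the next gene and the partner of Dtx3l in a complex, was at 5.34 ± 0.43 (SD, n = 3) exposed and 5.34 ± 0.088 (SD, n = 2) control (interval of the difference -0.62 to 0.62). Of the 3 adjacent genes, Parp14 alone had an interval that excluded 0. Ifi35, an interferon-induced leucine zipper protein, was at 7.46 ± 0.13 (SD, n = 3) and read 7.40 on both control arrays. Ifi35 is among 10 members (27.0%) whose deposited values were exactly equal on at least 2 arrays, against 27.2% of all probe sets.

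**Figure D3:**
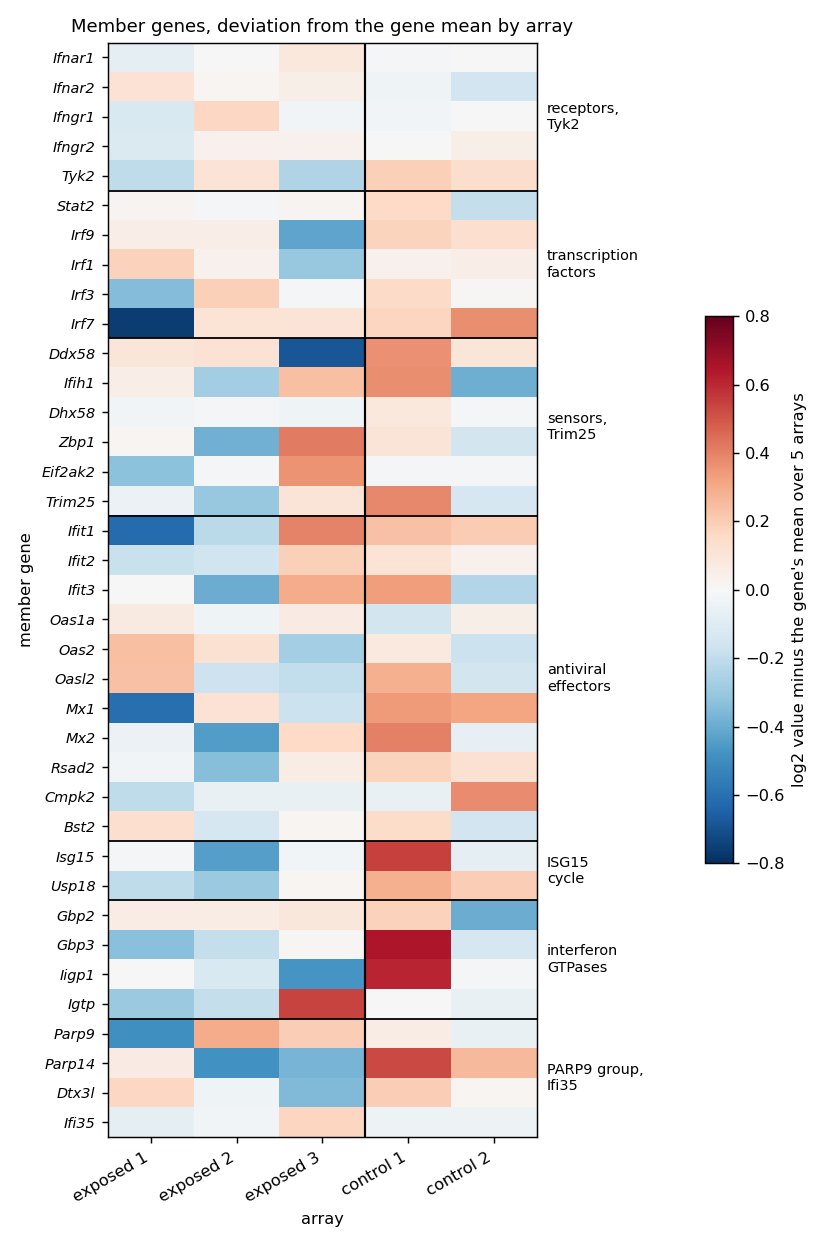
Deviation of each member from its own mean over the 5 arrays, in log2 units, with members in rows by role and arrays in columns (red above, blue below the gene's mean; the vertical line parts exposed from control arrays). Control array 1 is the reddest column, and the strongest blue cells are Irf7, Ifit1 and Mx1 on exposed array 1 and Ddx58 on exposed array 3.

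Across arrays, control array 1 held the highest value for 20 of 37 members (54.1%), against 17.6% of all probe sets. It was lowest for Oas1a alone. The mean deviation of the members from their own means was 0.19 on control array 1 and -0.0045 on control array 2, against -0.096, -0.089 and -0.00037 on exposed arrays 1, 2 and 3. The members' mean was thus set apart on 1 control array, and the other control array lay within the range of the exposed arrays. Between the control arrays 28 of 37 members were higher on array 1, against 46.5% of all probe sets. For 21 members the gap between the control arrays was larger than the difference between groups, against 56% of all probe sets. The control arrays differed from each other in Gbp3 by 0.78, in Ifih1 by 0.75, in Isg15 by 0.63, in Iigp1 by 0.62, in Gbp2 by 0.58 and in Ifit3 by 0.56.

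Several members shared their highest and their lowest array. Trim25, Ifit3, Mx2, Rsad2, Isg15, Usp18 and Parp14 were highest on control array 1 and lowest on exposed array 2. The arrays between these stood in different orders. The pattern was picked out after the values were seen; it held for 7 of 37 members (18.9%) and 2.96% of all probe sets. Exposed array 1 was lowest for 14 members, against 23.8% of all probe sets. Exposed array 3 was highest for 7 members (18.9%), against 24.5% of all probe sets. With 5 arrays no correlation between members was computed.

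Members with the ISRE letters were set beside those without. Of the 13 with an ISRE core in a window, 11 were higher on control array 1 than on control array 2, with a median gap of 0.31. Of the 15 measured members whose windows lacked it, 8 were higher, with a median gap of 0.05. The difference between these counts was not tested. The 2 sets also differ in kind: the 13 are all interferon-stimulated genes, while the 15 include the receptor chains, Tyk2 and Irf3. Of the receptor chains and Tyk2, 2 of 5 were higher on control array 1, with a median gap of -0.01. The ISRE-bearing members had a mean deviation of 0.23 on control array 1 and -0.16 on exposed array 2. Between the groups, 6 of the 13 were lower in mean on exposed arrays, as were 11 of the 15 and 50.1% of all probe sets. Members with no window are in neither set: Mx1, Mx2, Usp18, Parp9, Parp14, Oas2, Dhx58, Zbp1 and Iigp1. All of these were also higher on control array 1, with gaps from 0.02 for Mx1 to 0.62 for Iigp1. Of the 31 members other than the receptor chains, Tyk2 and Irf3, 25 were higher on control array 1. The members with no window include Parp14, Usp18 and Mx1, the 3 members with an unadjusted limma p under 0.05, so the counts by ISRE core do not cover them. Isg15, Gbp3, Gbp2, Ifit3, Stat2 and Bst2 had been chosen for printing by their gap. In the other 4 members with a core before the start the gap was 0.06 for Igtp, 0.06 for Rsad2, 0.03 for Ifit1 and -0.19 for Oas1a.

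**Figure D4:**
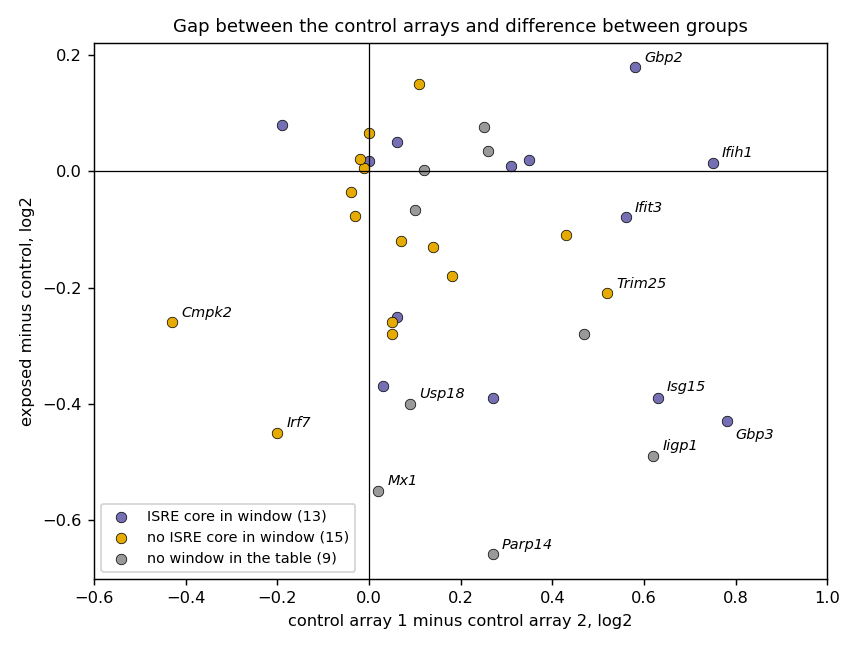
Gap between the control arrays (control array 1 minus control array 2, log2, horizontal) against the difference between groups (exposed minus control, log2, vertical) for the 37 members, coloured by whether a promoter window holds the ISRE core (13 with, 15 without, 9 with no window). Most points lie right of 0, and Isg15, Gbp3 and Iigp1 combine a wide control gap with a low exposed mean, whereas Mx1, Usp18 and Parp14 have a low exposed mean with a gap of 0.27 or less.

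Other genes of the pathway were taken from a list of 101, of which 89 were measured; 12 are not analysed here. None passed (0 of 89 in limma at an adjusted p under 0.05, against 0% of all probe sets). At an unadjusted limma p under 0.05 there was 1 gene (1.12%), against 3.49% of all probe sets. In mean 42 were higher and 47 (52.8%) lower on exposed arrays, where 50.1% of all probe sets were lower. The median difference was -0.0037. Jak1, the kinase shared by the receptors, read 6.76, 7.14 and 6.83 on exposed and 7.02 and 6.75 on control arrays. Ifnb1, the interferon-beta gene, read 3.86, 3.87 and 3.46 against 3.72 and 3.72, at the 35.6th percentile of signal. Of 13 measured ligand genes 9 lay below the median probe set. In mean 10 (76.9%) were higher, against 49.9% of all probe sets, with a median difference of 0.13. The ligands' mean deviation from their own means was 0.21 on exposed array 1, but -0.11 and -0.0093 on exposed arrays 2 and 3. On control arrays 1 and 2 it was -0.054 and -0.031. Interferon-alpha genes are near-identical copies, so their separate values are uncertain.

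Of the interferon-stimulated genes outside the member list, 53 were measured. In mean 33 (62.3%) were lower and 20 higher on exposed arrays, where 50.1% of all probe sets were lower. Trim21, an antibody receptor and ubiquitin ligase, read 4.86, 4.69 and 5.01 on exposed and 5.23 and 5.26 on control arrays, a difference of -0.39 (-0.74 to -0.05, unadjusted limma p 0.032, adjusted p 0.93). Tgtp2, an immunity-related GTPase, differed by -0.37 (-0.78 to 0.03) with no overlap. Gbp7, a guanylate-binding protein, read 6.61, 6.18 and 6.6 against 7.19 and 6.57, highest on control array 1 and lowest on exposed array 2 as Isg15 was. That pair of extremes was shared by 9 of the 89 genes (10.1%), against 2.96% of all probe sets. Control array 1 was highest for 17 of the 53 stimulated genes (32.1%) and for 1 of the 13 ligands (7.69%). It was highest for 54.1% of the members and for 17.6% of all probe sets. Irf5 (-0.40), Tlr3 (-0.40) and Ifnk (-0.43) also had wide differences, and in each the groups overlapped. Tlr3, a receptor for double-stranded RNA, read 5.98 on exposed array 1 and between 6.70 and 7.19 on the other arrays.

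Most markers of the cultured cells had high signals, and most markers of immune cells, among them interferon producers, lay below the median probe set. All 10 adipocyte markers were measured, with a median at the 96.7th percentile of signal, from Lep at 3.15 exposed and 3.20 control to Fabp4 at 12.37 in both. Of the measured markers in all the lists, Retn, the adipocyte hormone resistin, alone had an interval that excluded 0. Over all probe sets the interval excluded 0 for 3.49%. Retn was at 9.04 ± 0.20 (SD, n = 3) exposed and 8.59 ± 0.14 (SD, n = 2) control. Its difference was 0.46 (0.06 to 0.86, unadjusted limma p 0.031, adjusted p 0.93), and it was picked out after its values were seen. Of 6 preadipocyte and fibroblast markers, Dlk1 was highest (10.34 exposed, 10.62 control) and Cd34 lowest (3.46 and 3.56). Below the median probe set lay 6 of 7 macrophage markers, 5 of 6 plasmacytoid dendritic cell markers, 7 of 7 T and natural killer cell markers and 6 of 7 B and plasma cell markers. The exceptions were Lyz2, Cox6a2 and Sdc1, of which Cox6a2 also marks muscle and Sdc1 many epithelial and stromal cells. The mean level of the macrophage markers ranged from 3.24 to 3.38 on exposed and from 3.37 to 3.45 on control arrays, and that of the plasmacytoid dendritic markers from 3.88 to 4.10 and from 4.00 to 4.05. Their part in the member values was not tested. Array medians lay between 4.80 and 4.88, and no detection calls came with the values, so no member could be marked as below background.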

How the data were processed

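The deposited values are log2 expression per probe set and array, for which the submitters' processing notes name Partek and RMA. Their versions and the array's annotation build are not given in the sources used here. RMA corrects background, equalises the distributions of the arrays and sums the probes of a set, which compresses differences between dim signals. Of 22206 probe sets 19572 had 1 gene symbol in the platform annotation, 0 had several and 2634 had none. Exposed (3) and control (2) arrays were compared over all probe sets by limma 3.58.1 (R 4.3.3) in a model of group alone, with two-sided moderated tests (3 residual and 3.17 prior degrees of freedom), with p-values adjusted by the Benjamini-Hochberg method over all probe sets and calls at an adjusted p under 0.05. Differences are exposed minus control. The number of arrays limits the precision. Percentiles place a probe set's mean among all probe sets and do not rank RNA amounts. Promoter sequences and neighbouring genes came from RefSeq (GRCm38.p6), matched by symbol. The members, gene lists and tests were chosen with earlier results of these data known. Every member is named; values on all arrays are given for the 12 members with the largest difference and for Ifnar1, Ifnar2, Stat2, Irf9, Irf3 and Isg15, and of the other pathway genes for Jak1 and Ifnb1, with the 6 of largest difference described; of each marker list the highest or lowest gene may be named. Other members are given by group means. Alternatives were the moderation, array weights, a filter at the median level, normalization again, centring, leaving out each array, a replicate block and other thresholds.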

Additional observations from a re-analysis of the deposited data

How the results depend on the processing

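No member was called under any of 14 alternatives, and no other pathway gene; the smallest adjusted p of a member was 0.76. The sign of the difference held under all 12 alternatives with a value for 18 of 37 members, and for 14 of the 15 that differed by at least 0.2, Trim25 being the exception. The alternatives for the moderation and the filter at the median level leave each difference unchanged, so the sign could not move under them. The replicate block gives the same difference as leaving out exposed array 3. These alternatives therefore add nothing on the sign. The size held less well: without control array 1 the difference was -0.041 for Gbp3, -0.076 for Isg15, -0.045 for Mx2 and -0.18 for Iigp1, and without control array 2 it was -0.048 for Cmpk2. Without exposed array 1 it was -0.16 for Irf7, -0.13 for Ifit1 and -0.35 for Mx1, without exposed array 2 -0.13 for Rsad2, and without exposed array 3 -0.099 for Irf9 and -0.13 for Ddx58. For Parp14, Usp18 and Tyk2 it ranged from -0.82 to -0.52, -0.49 to -0.34 and -0.39 to -0.22. Leaving out 1 array at a time, the median difference of the members ranged from -0.2 to -0.041, members higher in mean from 7 to 15, members lower on every exposed array from 10 to 21, and members at an unadjusted p under 0.05 from 1 to 4. Without moderation that last count was 1. The counts of members lower on every exposed array have no matching share of all probe sets here, and fewer arrays were to be separated. Centring on array medians gave 9 members higher in mean. At or above the median level 24 other pathway genes were higher, with fewer genes tested. Control array 1 was highest for 17 to 24 members. With a replicate block, 8 members were higher in mean and 5 had an unadjusted p under 0.05, and none was called. The labels do not say whether arrays with the same replicate number belong together. The groups share 2 numbers (same-numbered deviations correlated at -0.0139 and -0.0318), so the block leaves exposed array 3 unpaired.

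The cause of the changes of sign below was not tested. With array weights the difference was -0.029 for Bst2, -0.063 for Ifih1, -0.0058 for Igtp, -0.074 for Zbp1. After centring the difference was -0.0093 for Bst2, -0.00025 for Eif2ak2, -0.0026 for Ifih1, -0.011 for Ifnar1, -0.0046 for Ifnb1, -0.015 for Parp9. After quantile normalization the difference was -0.046 for Ifnb1, 0.0015 for Ifngr2, -0.014 for Parp9. With the replicate block the difference was -0.16 for Eif2ak2, -0.0057 for Ifi35, -0.1 for Ifih1, -0.034 for Ifnar1, -0.21 for Igtp, 0.062 for Irf1, -0.096 for Parp9, -0.16 for Zbp1. Without 1 array at a time, the difference ranged from -0.15 to 0.16 for Bst2, from -0.16 to 0.18 for Eif2ak2, from -0.11 to 0.47 for Gbp2, from -0.0057 to 0.11 for Ifi35, from -0.36 to 0.39 for Ifih1, from -0.36 to 0.2 for Ifit3. It ranged from -0.034 to 0.047 for Ifnar1, from -0.058 to 0.15 for Ifnb1, from -0.058 to 0.086 for Ifngr1, from -0.061 to 0.014 for Ifngr2, from -0.91 to 0.052 for Ifnk, from -0.21 to 0.21 for Igtp. It ranged from -0.18 to 0.062 for Irf1, from -0.26 to 0.013 for Irf3, from -0.1 to 0.16 for Jak1, from -0.015 to 0.17 for Oas1a, from -0.048 to 0.22 for Oas2, from -0.33 to 0.11 for Oasl2. It ranged from -0.14 to 0.25 for Parp9, from -0.16 to 0.2 for Stat2, from -0.47 to 0.051 for Trim25, from -0.16 to 0.24 for Zbp1. The mean of several probe sets of a gene was not run, since no member has several, and a highest value on control array 1 has no value without that array. Leaving out a control array leaves 1, assumed to vary like the exposed arrays. With no detection calls, signal over background is unknown.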
